A study of Mus musculus with 20 samples.

Results

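The odorant receptor genes of mouse chromosome 19 were followed through 4 groups of sorted cells from the olfactory mucosa. They were the gene probe sets placed on chromosome 19 by their row identifier and named Olfr with a number, leaving out Olfr1440, which gave 60 of the 22206 gene probe sets on the array and 60 of its 1080 odorant receptor probe sets. All mice carried the S100a5-tauGFP reporter, in which green fluorescent protein (GFP) marks cells that express S100a5. The study used 30 mice of both sexes, aged 7 to 12 weeks, kept for 40 h in single chambers with an air flow of 3.1 L/min. From 26 h on they received 10 s pulses of either filtered air (vehicle) or an artificial cigarette smoke odor, repeated at 20 min intervals. Mucosa of 3 mice made a pool, and cells of each pool were separated by GFP into positive (GFP+) and negative (GFP-) fractions, so that the groups were vehicle GFP-, vehicle GFP+, odor GFP- and odor GFP+, with 5 arrays each. The series' own design text names bourgeonal as the odorant where the sample labels name the smoke odor, and the sample labels were followed. The strain was not given in the sources used here, and a pooled sample does not show differences between the mice in it.

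Odorant receptors are G protein-coupled receptors of the sensory neurons, and each mature neuron normally expresses a single receptor gene from a single allele. Binding of an odorant raises cAMP through Gnal (the olfactory G protein) and Adcy3 (adenylyl cyclase), which opens the Cnga2-containing channel. S100a5 encodes a calcium-binding protein whose expression in these neurons depends on their activity, so the GFP+ fraction is meant to hold neurons with recent activity. The chromosome 19 receptors belong to class II, the larger of the classes of mammalian odorant receptors, and their older MOR names place them in families by sequence likeness. In bulk samples, fewer cells that express a receptor and less of its RNA per cell cannot be told apart.

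Next to each other on the chromosome, 4 receptors of the MOR202 family held the widest fitted contrasts of the cluster: Olfr1445 and Olfr1448, on the outside, were higher in GFP+ cells, and Olfr1446 and Olfr1447, between them, were lower. Their first 50 coding bases are shown because, compared by position without gaps, they sort these genes into the same pairs. That pairing depends on the annotated starts. From their second atg on, the bases of Olfr1446 and Olfr1447 largely match the start of Olfr1445. The sequences are from RefSeq on build GRCm38.p6, and capitals mark bases at which Olfr1448 differs from Olfr1445, at 2 of the 50 positions, while Olfr1446 and Olfr1447 are identical over all 50. The positions are chr19:12883883-12883932, plus strand for Olfr1445, chr19:12920258-12920307, minus strand for Olfr1448, chr19:12890526-12890575, minus strand for Olfr1446 and chr19:12901729-12901778, minus strand for Olfr1447.
Olfr1445: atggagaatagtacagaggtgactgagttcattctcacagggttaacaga
Olfr1448: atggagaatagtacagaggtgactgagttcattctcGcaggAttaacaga
Olfr1446: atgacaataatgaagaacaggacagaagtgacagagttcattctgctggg
Olfr1447: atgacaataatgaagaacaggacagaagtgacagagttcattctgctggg

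The values are log2 signals as deposited. The targeted marker went with the sort: S100a5 was higher in GFP+ than in GFP- cells by 1.30 (SE 0.36, n = 5 pools, adjusted p = 0.0368, limma) in vehicle pools and by 2.15 (adjusted p = 0.00131) in odor pools. Omp, the general marker of mature sensory neurons, differed by 0.22 and 0.12 without passing the test, and all 12 mature neuron markers were above background on every array of both fractions. The arrays of replicate 5 stood apart in every group: the median over all gene probe sets was 7.03 to 7.46 there and 6.06 to 6.39 on the others, and the median over the 60 receptors 9.09 to 9.52 against 6.12 to 7.90. On each array 8 to 23 receptors lay at or below the median of the background control probe sets, 23 receptors were above it on all 20 arrays, and 2, Olfr1457 and Olfr1462, were at or below it on all 20. Receptor signals ran from 3.07 to 14.60, the highest lying 3.90 below the lowest of the arrays' maxima.

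The receptors of chromosome 19 separated in both directions between the fractions of the same pool. In vehicle pools 18 of 60 (30%) were higher in GFP+ cells and 17 (28.3%) were lower, by limma on within-pool differences with a Benjamini-Hochberg adjusted p under 0.05 over all 22206 probe sets, against a background of 2.26% and 6.86% of all probe sets. The other 1020 odorant receptors were higher in 33.9% and lower in 15% of cases. In odor pools 19 receptors (31.7%) were higher and 18 (30%) lower, against a background of 2.07% and 5.82% and against 30.4% and 16.4% of the other odorant receptors. Without both pools numbered 5, 15 receptors were higher and 14 lower in vehicle pools, and 13 and 16 in odor pools. The median difference over the 60 receptors was 0.23 in vehicle and 0.023 in odor pools, where that of all probe sets was 0.09 and 0.08. The SD over the 60 receptors was 2.18 and 2.31, against 0.87 and 0.83 for all probe sets. The other 1020 odorant receptors had medians of 0.53 and 0.44 and a like SD of 1.97 and 2.06. When every array was centred on the median of its gene probe sets, 22 receptors were higher and 16 lower in vehicle pools, and the split over all probe sets moved from 501 higher and 1523 lower to 1169 higher and 1211 lower, since the median difference of all probe sets moved from 0.09 to 0.33.

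The calls overlapped between the conditions, whose pools came from different mice. Of the 60 receptors, 18 were higher in both conditions and 17 lower in both, beside 1.57% and 5.31% of all probe sets. The remaining calls were Olfr1459, higher in odor pools by 1.17 and at 0.92 in vehicle pools (adjusted p = 0.0775, limma), and Olfr1499, which was at or below background on all odor GFP+ arrays and at least 1.40-fold lower there, and was not called in vehicle pools (adjusted p = 0.0764), with 4 of 5 GFP+ arrays at or below background. In neither condition were 23 called. The sign was the same in all 10 pools for 17 receptors that were higher and 17 that were lower. That count was made for the 60 receptors alone, from the same pool differences as the calls, so it adds no separate support. The calls shared by both conditions were not counted among the other odorant receptors. Across the 60 receptors the vehicle differences correlated with the odor differences at 0.983 (Pearson) and 0.981 (Spearman), as a description across genes, which are not independent replicates. The signals of the 5 GFP+ and 5 GFP- arrays did not overlap for 11 receptors (18.3%) in vehicle pools and for 21 (35%) in odor pools. This held for 4.74% and 5.07% of all probe sets, and for 23.1% and 26.1% of the other odorant receptors. When the fractions of a pool were treated as unpaired, 8 receptors were higher and 12 lower in vehicle pools (background 0.986% and 4.41%) and 10 higher and 12 lower in odor pools (background 0.928% and 3.8%), all of them among the paired calls.

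**Figure D1:**
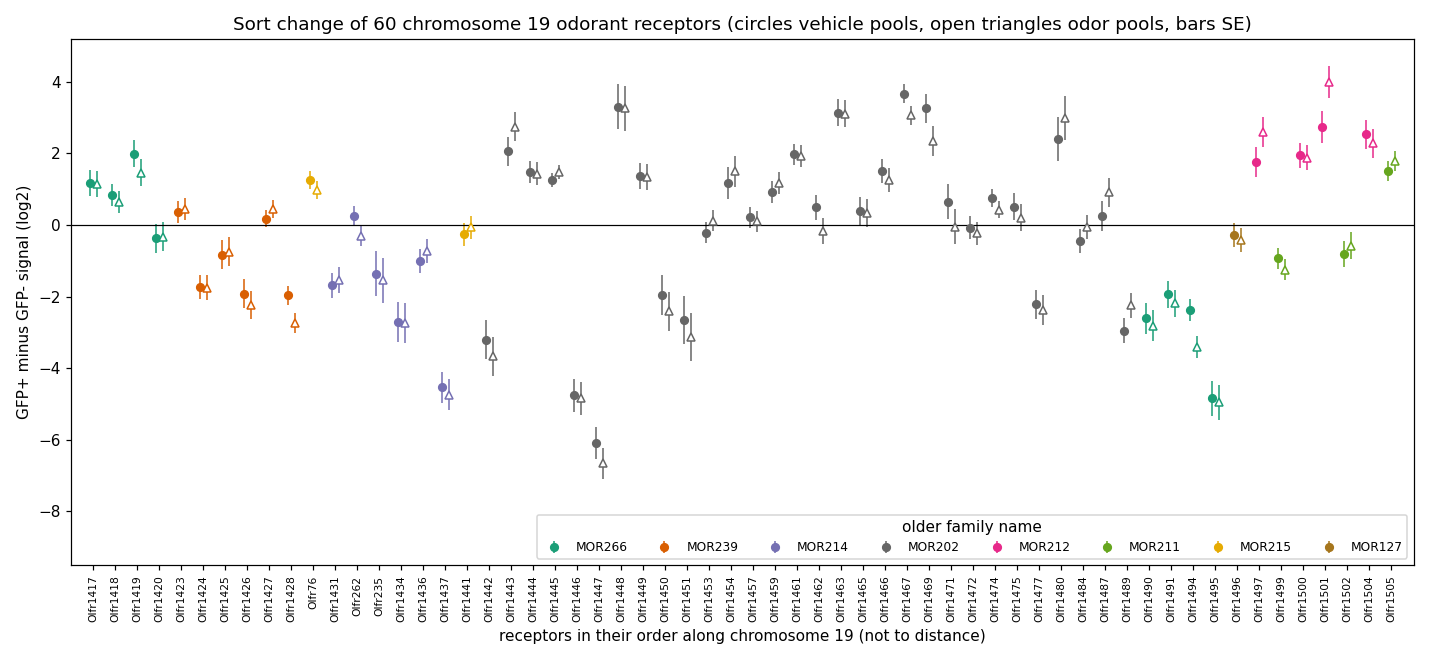
GFP+ minus GFP- log2 signal (y axis) of the 60 receptors in their order along chromosome 19 (x axis, not to distance), with vehicle pools as filled circles, odor pools as open triangles, SE as bars and older family names by colour. Values ran from -6.09 (Olfr1447) to 3.67 (Olfr1467) in vehicle pools, and the 4 MOR212 receptors at the right end were all above 0.

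Among receptors higher in GFP+ cells, Olfr1467 of the MOR202 family had the largest difference in vehicle pools. Olfr1467 signals in vehicle pools 1 to 5 were 8.39, 8.71, 7.86, 7.80 and 9.98 in GFP- cells and 12.90, 12.31, 11.68, 11.48 and 12.71 in GFP+ cells. In odor pools, Olfr1467 gave 9.004, 8.52, 8.14, 7.91 and 9.97 in GFP- cells and 12.53, 11.56, 11.87, 10.55 and 12.37 in GFP+ cells. Every GFP+ signal was above every GFP- signal in both conditions, with the vehicle and odor values in the same range. The difference was 3.67 (SE 0.27, adjusted p = 8.57e-07, limma) in vehicle and 3.07 (SE 0.27, adjusted p = 4.64e-06) in odor pools, which is 12.7-fold and 8.39-fold.

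Olfr1448, also of the MOR202 family, spread more between pools. Olfr1448 signals in vehicle pools 1 to 5 were 6.05, 7.92, 6.70, 7.41 and 9.87 in GFP- cells and 11.85, 8.06, 11.74, 10.12 and 12.72 in GFP+ cells. The GFP+ signal of pool 2 lay close to its GFP- signal there, and the groups overlapped. In odor pools, Olfr1448 gave 7.00, 5.92, 8.14, 8.13 and 9.79 in GFP- cells and 11.56, 10.06, 11.18, 10.51 and 11.94 in GFP+ cells. In odor pools the groups did not overlap. The difference was 3.31 (SE 0.63, adjusted p = 0.00331, limma) in vehicle and 3.26 (SE 0.63, adjusted p = 0.00425) in odor pools.

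Olfr1469 was dim in GFP- cells, where 3 of 5 vehicle arrays and 2 of 5 odor arrays were at or below background. Olfr1469 signals in vehicle pools 1 to 5 were 3.93, 4.86, 5.31, 4.92 and 6.69 in GFP- cells and 9.03, 6.03, 8.35, 8.17 and 10.39 in GFP+ cells. In odor pools, Olfr1469 gave 5.37, 4.81, 6.14, 6.06 and 7.53 in GFP- cells and 8.17, 6.74, 8.68, 7.67 and 10.38 in GFP+ cells. The GFP+ signal was higher in every pool, and the groups overlapped in both conditions. The difference was 3.25 (adjusted p = 0.000121, limma) in vehicle and 2.35 (adjusted p = 0.00188) in odor pools, where it lost its call with the fractions unpaired (adjusted p = 0.0869).

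Olfr1463 showed the tightest odor signals of these receptors in GFP+ cells. Olfr1463 signals in vehicle pools 1 to 5 were 9.83, 9.79, 8.51, 9.72 and 9.09 in GFP- cells and 12.36, 11.65, 13.53, 12.22 and 12.84 in GFP+ cells. In odor pools, Olfr1463 gave 9.67, 8.03, 9.63, 9.23 and 9.06 in GFP- cells and 12.15, 11.92, 12.61, 11.98 and 12.48 in GFP+ cells. The fractions did not overlap in either condition, and its replicate 5 arrays did not stand above the others. The difference was 3.13 (adjusted p = 8.41e-05, limma) in vehicle and 3.10 (adjusted p = 0.000105) in odor pools. The next members by vehicle difference were Olfr1501 (2.74 in vehicle and 4.00 in odor pools), Olfr1504 (2.53 and 2.29), Olfr1480 (2.41 and 3.00) and Olfr1443 (2.06 and 2.75), each higher in both. With the fractions unpaired, Olfr1480 (adjusted p = 0.105) and Olfr1443 (adjusted p = 0.171) lost their vehicle calls. Olfr1480 also lost its vehicle call without vehicle replicate 3 (1.68, adjusted p = 0.113), without vehicle replicate 5 (2.33, adjusted p = 0.0916) and without both pools numbered 5 (adjusted p = 0.13), and in odor pools without both pools numbered 5 (2.90, adjusted p = 0.0547).

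Among receptors lower in GFP+ cells, Olfr1447 had the largest difference of all 60. Olfr1447 signals in vehicle pools 1 to 5 were 10.16, 12.29, 11.63, 13.73 and 13.63 in GFP- cells and 5.91, 6.07, 6.05, 6.88 and 6.07 in GFP+ cells. In odor pools, Olfr1447 gave 12.60, 11.03, 12.20, 12.80 and 14.60 in GFP- cells and 6.81, 5.51, 5.57, 4.87 and 7.18 in GFP+ cells. All GFP- signals were above all GFP+ signals, and the fractions overlapped in neither condition. The difference was -6.09 (SE 0.44, adjusted p = 7.16e-07, limma) in vehicle and -6.66 (SE 0.44, adjusted p = 3.44e-07) in odor pools, which is 68.3-fold and 101-fold lower in GFP+ cells. The Olfr1447 signal was at or below background on 1 vehicle and 2 odor GFP+ arrays.

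Olfr1495, of the MOR266 family, followed. Olfr1495 signals in vehicle pools 1 to 5 were 9.54, 10.67, 8.88, 10.55 and 12.25 in GFP- cells and 5.14, 5.63, 6.08, 5.50 and 5.32 in GFP+ cells. In odor pools, Olfr1495 gave 10.84, 9.32, 10.70, 10.21 and 13.36 in GFP- cells and 5.64, 5.94, 5.60, 5.63 and 6.86 in GFP+ cells. All GFP- signals were above all GFP+ signals in each condition. The difference was -4.84 (SE 0.49, adjusted p = 1.75e-05, limma) in vehicle and -4.95 (adjusted p = 1.55e-05) in odor pools, with 3 of the vehicle GFP+ arrays at or below background.

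Olfr1446 was at or below background on all 10 GFP+ arrays, so its difference has only a bound. Olfr1446 signals in vehicle pools 1 to 5 were 7.69, 9.26, 8.03, 10.27 and 10.94 in GFP- cells and 4.49, 4.59, 4.58, 4.36 and 4.35 in GFP+ cells. In odor pools, Olfr1446 gave 9.12, 8.44, 7.21, 8.75 and 11.14 in GFP- cells and 4.43, 3.88, 3.40, 3.69 and 5.05 in GFP+ cells. The fractions did not overlap, and the GFP+ signals were lower in every pool. Set against the background control level, the signal was at least 12.1-fold lower in GFP+ cells of vehicle pools and at least 10.8-fold lower in odor pools, with fitted differences of -4.76 (adjusted p = 9.79e-06, limma) and -4.85 (adjusted p = 8.81e-06).

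Olfr1437, of the MOR214 family, was lower too. Olfr1437 signals in vehicle pools 1 to 5 were 9.50, 10.19, 7.80, 10.33 and 12.36 in GFP- cells and 6.15, 4.74, 4.67, 5.64 and 6.27 in GFP+ cells. In odor pools, Olfr1437 gave 10.06, 9.99, 9.05, 10.14 and 11.83 in GFP- cells and 5.33, 4.83, 4.53, 6.85 and 5.86 in GFP+ cells. The fractions did not overlap, and 3 of 5 GFP+ arrays were at or below background in each condition. The difference was -4.54 (adjusted p = 1.05e-05, limma) in vehicle and -4.74 (adjusted p = 7.49e-06) in odor pools. The next were Olfr1442 (at least 4.39-fold and 7.04-fold lower, at or below background on all GFP+ arrays), Olfr1489 (-2.96 and -2.24, its odor call lost with the fractions unpaired, adjusted p = 0.0999), Olfr1434 (at least 2.99-fold lower in both conditions) and Olfr1451 (-2.66 and -3.14). Olfr1451 lost its vehicle call without vehicle replicate 2 (adjusted p = 0.063), 4 (0.0791) or 5 (-1.88, adjusted p = 0.11), and without both pools numbered 5 (0.0672), and its odor call without odor replicate 5 (-2.61, adjusted p = 0.0557). In all, 5 receptors called in vehicle and 8 called in odor pools had their dimmer fraction at or below background on all 5 arrays.

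**Figure D2:**
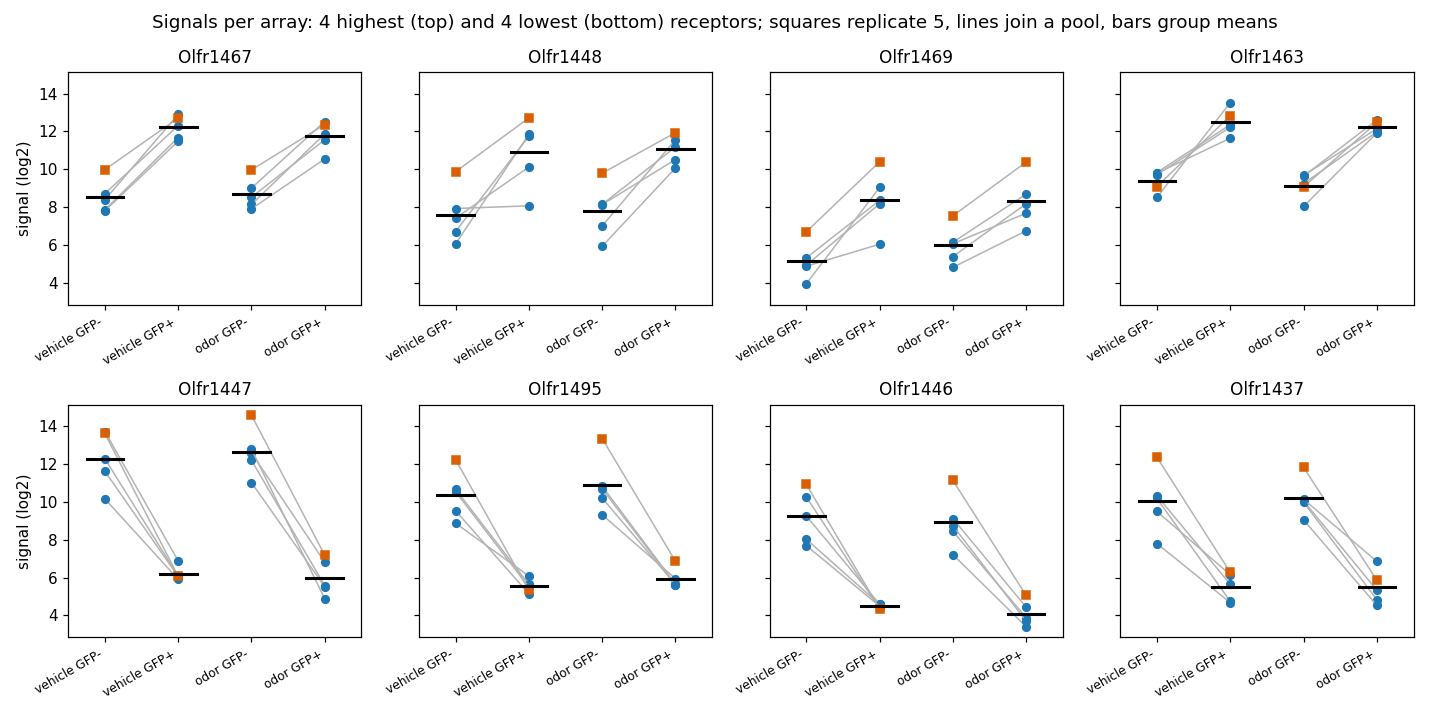
Log2 signal (y axis) on each array of the 4 receptors with the highest (top) and the 4 with the lowest (bottom) vehicle difference, by group (x axis). Points are arrays, squares are replicate 5, grey lines join the fractions of a pool and black bars are group means; every line rises in the top row and falls in the bottom row.

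The smallest vehicle differences were those of Olfr1472 (-0.08), Olfr1427 (0.18), Olfr1457 (0.22) and Olfr1453 (-0.22). Most were dim: Olfr1457 was at or below background on all 20 arrays, Olfr1453 on 19 with all 10 vehicle arrays among them, and Olfr1472 on 10, while Olfr1427 was above it on all. None was called, and after centring of the arrays Olfr1472 stood at 0.17 and Olfr1453 at 0.024, so that no direction is given for them.

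By family, the 4 MOR212 receptors (Olfr1497, Olfr1500, Olfr1501 and Olfr1504) were higher in GFP+ cells in both conditions, with vehicle differences from 1.75 to 2.74 and medians of 2.24 in vehicle and 2.45 in odor pools. Olfr1497 (1.75, adjusted p = 0.0151, limma) lost its vehicle call without vehicle replicate 3 (1.36, adjusted p = 0.084), without vehicle replicate 5 (1.34, adjusted p = 0.0857), without both pools numbered 5 (adjusted p = 0.116) and with the fractions unpaired (adjusted p = 0.187). Olfr1501 lost it with the fractions unpaired (adjusted p = 0.0795). The 30 MOR202 receptors held both extremes: 11 were higher and 7 lower in vehicle pools and 12 and 7 in odor pools, between -6.09 (Olfr1447) and 3.67 (Olfr1467).

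Of the 6 MOR214 receptors 3 were lower and 0 higher in both conditions (median -1.52 and -1.54), from -4.54 for Olfr1437 to 0.25 for Olfr262, which did not pass the test and was at or below background on 19 of 20 arrays, all 10 vehicle arrays included. With Olfr1434 set at its bound the vehicle median was -1.47. Of the 6 MOR239 receptors 3 were lower and 0 higher in both (median -1.28 and -1.25): Olfr1428 at -1.97 (adjusted p = 0.000213, limma), Olfr1426 at -1.92 and Olfr1424 at -1.73 in vehicle pools, while the highest, Olfr1423, was at 0.37 and not called. Olfr1428 lost its vehicle call with the fractions unpaired (adjusted p = 0.106, limma). Olfr1426 and Olfr1424 had smaller vehicle differences than Olfr1428, and their own unpaired results are not given here. In the small families, Olfr76 of MOR215 was higher (1.26) and Olfr1441, at or below background on 19 of 20 arrays, was not called. Olfr1505 of MOR211 was higher (1.51) beside Olfr1499 and Olfr1502 without a vehicle call. Whether Olfr76 and Olfr1505 kept their calls with the fractions unpaired is not given here. Olfr1496, the single MOR127 member, was at -0.28.

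The 8 MOR266 receptors lie in separate runs along the chromosome, which differed. Of the 4 from Olfr1417 to Olfr1420, 1 was higher and 0 lower (median 1.01 in vehicle and 0.89 in odor pools). The called one, Olfr1419, was at 1.99 (adjusted p = 0.003, limma) in vehicle and 1.45 (adjusted p = 0.0286) in odor pools. Its odor call was lost without odor replicate 1, 2, 3 or 5 (adjusted p = 0.0821, 0.142, 0.0712 and 0.11), without both pools numbered 5 (0.138) and with the fractions unpaired (0.341), where the vehicle call was lost as well (0.0632). The 4 from Olfr1490 to Olfr1495 were all lower in both conditions, with medians of -2.49 and -3.12. With receptors at background set at their bound the odor median was -2.81. Olfr1490, at -2.60 in vehicle pools with 4 of 5 GFP+ arrays at or below background, was at least 4.58-fold lower in odor pools, where all 5 were. Olfr1491 was at least 2.78-fold lower in vehicle pools, Olfr1494 was at -2.38 and Olfr1495 at -4.84.

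**Figure D3:**
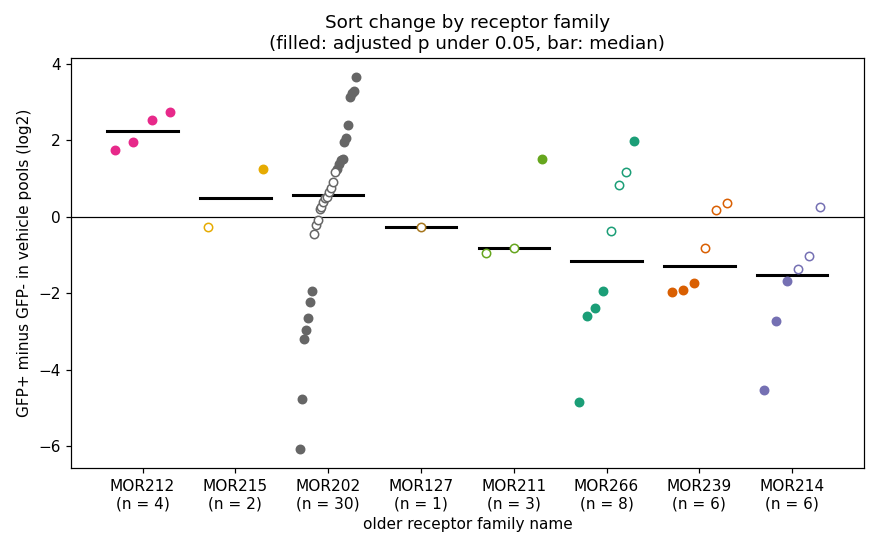
GFP+ minus GFP- log2 signal in vehicle pools (y axis) by older receptor family name (x axis, with the number of members), 1 point a receptor, filled where the adjusted p was under 0.05, with the family median as a bar. All 4 MOR212 points lie between 1.75 and 2.74, and the 30 MOR202 points run from -6.09 to 3.67.

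Along the chromosome, stretches chosen after their values were seen differed in their makeup. From Olfr1423 to Olfr1441, 1 of 14 receptors was higher and 6 lower in vehicle pools. From Olfr1442 to Olfr1451, 5 of 10 were higher and 5 lower. From Olfr1453 to Olfr1475, 5 of 15 were higher and 0 lower (6 and 0 in odor pools), and from Olfr1496 to Olfr1505, 5 of 8 were higher and 0 lower (5 and 1 in odor pools). Of the 59 pairs of neighbouring receptors 13 were called in the same direction and 7 in opposite directions in vehicle pools (22.0% and 11.9%), beside 16.3% and 17.3% of all 1770 pairs. The median absolute difference between neighbours was 1.94, beside 2.13 over all pairs. It was 1.54 for the 46 neighbours of 1 family and 2.94 for the 13 of different families, while over pairs at any place it was 2.11 for 503 of 1 family and 2.13 for 1267 of different families.

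The widest fitted contrasts between neighbours were Olfr1447 at -6.09 beside Olfr1448 at 3.31, Olfr1445 at 1.25 beside Olfr1446 at -4.76, and Olfr1442 at -3.20 beside Olfr1443 at 2.06. Olfr1446 and Olfr1442 have only bounds, and with these the contrasts were at least 4.85 and 4.19, beside 4.63 for Olfr1477 and Olfr1480 and 4.57 for Olfr1495 and Olfr1496. Compared by position, the 50 coding bases shown for Olfr1445 to Olfr1448 pair the outer genes with each other and the inner genes with each other. The outer genes were at 1.25 (adjusted p = 0.000543, limma, with 4 of 5 GFP- arrays at or below background) and 3.31, the inner genes at -4.76 and -6.09. Array probes can read both copies where genes are nearly identical, and this was not tested.

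A further 3 pairs with near-identical first 50 coding bases are shown because their members were called alike in 1 case and unlike in the others. Beyond these 50 bases the genes were not compared. Capitals mark the base at which the second gene of a pair differs from the first, at 1 of 50 positions in each pair, on GRCm38.p6 from RefSeq. Olfr1501 (chr19:13839122-13839171, minus strand) and Olfr1504 (chr19:13888159-13888208, minus strand) were both higher, by 2.74 and 2.53. Olfr1480 (chr19:13529675-13529724, plus strand) was higher by 2.41 and Olfr1487 (chr19:13619164-13619213, plus strand) was at 0.26 and not called (adjusted p = 0.84, limma). Olfr1502 (chr19:13861795-13861844, plus strand) was at -0.81 and not called, and Olfr1505 (chr19:13919022-13919071, plus strand) was higher by 1.51.
Olfr1501: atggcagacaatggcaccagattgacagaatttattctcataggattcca
Olfr1504: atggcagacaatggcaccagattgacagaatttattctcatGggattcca
Olfr1480: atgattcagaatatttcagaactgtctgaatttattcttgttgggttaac
Olfr1487: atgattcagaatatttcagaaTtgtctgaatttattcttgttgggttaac
Olfr1502: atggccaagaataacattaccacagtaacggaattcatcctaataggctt
Olfr1505: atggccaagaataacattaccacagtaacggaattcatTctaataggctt

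Coding bases were compared by position without gaps, so a start shifted against another lowers the count. Over the 49 receptors whose coding start is in the RefSeq windows, 14 of 1176 pairs were identical at 45 or more of the 50 bases, a minimum chosen after the values were seen. These pairs took in 23 receptors and each lay within 1 family. In vehicle pools both members were higher in 3 pairs, both lower in 1 and both uncalled in 6, while 1 member was called in 4 pairs and 0 pairs were called in opposite directions. The median absolute difference within these pairs was 0.98, beside 1.95 over all 1176. Among the 27 pairs just below that minimum, identical at 40 to 44 bases, both were higher in 1, both uncalled in 7 and 1 member called in 13. The other 6 were called in opposite directions, with fitted differences from 6.25 to 9.23, each of them Olfr1446 or Olfr1447 with Olfr1444, Olfr1461 or Olfr1463. The median there was 2.56.

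Windows of 250 bases before the annotated start were held for 57 of the 60 receptors and not for Olfr1425, Olfr1454 and Olfr1469. In 49 of the 57 the annotated start is the start codon itself, so the window is not known to hold the promoter, and in 8 the start lies before the coding sequence. Among those 8, Olfr1434 and Olfr1437, both of MOR214 and both lower in GFP+ cells, were the most alike, with 63.6% identity over their alignment. The other pairs of these windows ran from 43.9% to 53.7%. Among the same 8, Olfr1443, which was higher, held the only match to CCCNNGGG, the core of the site of the Olf/Ebf factors. The 250 bases are given for Olfr1434 (chr19:12279604-12279853, plus strand), Olfr1437 (chr19:12325067-12325316, minus strand) and Olfr1443 (chr19:12677916-12678165, plus strand) in GRCm38.p6, with capitals marking TAATTA and TAATTG, homeodomain motifs, in the first pair and the CCCNNGGG match in Olfr1443, on the gene's own strand.
Olfr1434: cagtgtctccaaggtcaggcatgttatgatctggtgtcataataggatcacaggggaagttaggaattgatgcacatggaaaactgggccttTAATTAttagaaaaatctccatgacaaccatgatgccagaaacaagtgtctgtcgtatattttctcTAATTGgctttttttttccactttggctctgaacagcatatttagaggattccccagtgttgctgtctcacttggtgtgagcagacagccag
Olfr1437: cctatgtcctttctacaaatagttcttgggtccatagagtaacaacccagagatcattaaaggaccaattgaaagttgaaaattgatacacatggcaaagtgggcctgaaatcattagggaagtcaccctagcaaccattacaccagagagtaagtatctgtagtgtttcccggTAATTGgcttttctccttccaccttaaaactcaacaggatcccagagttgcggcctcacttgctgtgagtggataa
Olfr1443: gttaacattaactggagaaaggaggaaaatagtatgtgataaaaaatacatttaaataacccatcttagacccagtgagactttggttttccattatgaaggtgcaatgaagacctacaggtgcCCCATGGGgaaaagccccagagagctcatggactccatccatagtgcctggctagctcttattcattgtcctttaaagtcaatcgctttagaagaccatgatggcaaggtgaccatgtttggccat

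Searched on both strands, TAATTG was in 19 of the 57 windows (33.3%) and in 7.17% of all 32851 windows in the RefSeq table. It was in 8 of 17 windows of receptors lower in vehicle pools, 1 of 17 of those higher and 10 of 23 of those not called. TAATTA was in 12 windows (21.1%, against 4.84% of all), and the TATA-like motif TATAAA in 15 (26.3%, against 12.4%). All 15 were among the 49 windows that end at the start codon, and 0 among the 8 others. CCCNNGGG was in 1 window (1.75%, against 11.8%). The windows of all genes were not split by where their start lies, and other odorant receptors were not counted apart. These shares may therefore compare unlike kinds of window. TAATTA and TAATTG share their first 5 letters. A match describes these letters in the window and no more.

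Genes that act with or after the receptors were counted between the fractions too. Of 31 measured genes on lists of receptor trafficking, G protein, cAMP, channel, termination and receptor choice genes, 0 were higher and 1 was lower in GFP+ cells in each condition. Of all probe sets 2.26% were higher and 6.86% lower in vehicle pools, and 2.07% and 5.82% in odor pools. With 31 genes, these counts are near those shares. By role, 0 of 3 trafficking genes, 0 of 4 G protein genes, 0 of 3 cAMP genes, 0 of 5 channel genes and 0 of 2 termination genes passed the test. The exception among 14 choice genes was Lbr, a nuclear envelope protein tied to heterochromatin, at -2.18 in vehicle and -1.94 in odor pools.

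Markers of other cells moved with the sort. All 11 measured white blood cell markers were lower in GFP+ cells in both conditions. The log2 of their summed unlogged signals was 19.02 to 20.40 in GFP- and 9.95 to 10.43 in GFP+ cells of vehicle pools. In odor pools it was 18.67 to 20.01 against 9.76 to 10.20. The brightest genes weigh most in such a sum. Of 10 immature neuron markers 4 were lower, of 5 globose basal and cycling cell markers 3 in vehicle and 4 in odor pools, of 6 sustentacular cell markers 3 and 1, and of 5 microvillar cell markers all 5, with 0 higher in each list. Of all probe sets 6.86% were lower in vehicle and 5.82% in odor pools. The microvillar markers, summed in the same way, gave 10.83 to 12.79 in GFP- and 7.97 to 8.63 in GFP+ cells of vehicle pools. Among the 12 mature neuron markers S100a5 alone passed the test. The part of these cells in the receptor differences was not tested.

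The smoke odor against vehicle, the question of the assay, gave 0 called receptors in any of 3 comparisons by limma, as it gave 0 of 22206 probe sets. For the odor effect on the difference between GFP+ and GFP- cells, the background of unadjusted p under 0.05 was 1.21% of all probe sets, and 1 receptor, Olfr1494, was among them. Within GFP+ cells it was 0.275% and 0 receptors, and within GFP- cells 0.135% and 0 receptors. The median SE of a receptor's log2 difference was 0.52 for the odor effect, 0.50 in GFP+ cells and 0.57 in GFP- cells. With odor and vehicle pools of the same number paired, 0 were called and 2, 5 and 3 receptors had an unadjusted p under 0.05, beside 0.838%, 3.69% and 0.856% of all probe sets. No gene of the pathway or marker lists was called in these comparisons.

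Olfr1494 had the smallest p for the odor effect. Olfr1494 signals in vehicle pools 1 to 5 were 10.07, 11.31, 10.65, 11.54 and 11.92 in GFP- cells and 9.24, 8.46, 8.58, 8.08 and 9.20 in GFP+ cells. In odor pools, Olfr1494 gave 11.68, 11.44, 11.17, 11.39 and 12.65 in GFP- cells and 8.14, 8.18, 8.27, 7.57 and 9.05 in GFP+ cells. The vehicle pool differences ran from -3.46 to -0.83 and the odor pool differences from -3.82 to -2.89, so that they overlapped. Vehicle replicate 1 was the least negative. Its GFP- array had the lowest mean correlation with its own group of any array, at 0.895, against 0.941 to 0.965 for replicate 5 arrays. The odor effect was -1.04 (95% interval -1.98 to -0.09, unadjusted p = 0.0341, adjusted p = 1.0, limma). With single pools left out, it ran from -1.31 (without vehicle replicate 4) to -0.65 (without vehicle replicate 1). Whether the interval still left out 0 without vehicle replicate 1 is not given here.

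Olfr1428 came next. Olfr1428 signals in vehicle pools 1 to 5 were 12.13, 12.62, 12.83, 13.74 and 14.26 in GFP- cells and 10.10, 10.56, 10.66, 12.12 and 12.30 in GFP+ cells. In odor pools, Olfr1428 gave 12.81, 12.33, 13.34, 13.40 and 14.55 in GFP- cells and 9.26, 8.70, 10.74, 11.51 and 12.54 in GFP+ cells. Its GFP+ signals were lowest on odor arrays 1 and 2, and its vehicle and odor signals overlapped in each fraction. The odor effect was -0.77 (95% interval -1.59 to 0.05, adjusted p = 1.0, limma).

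Olfr1501, the called receptor whose vehicle and odor differences were farthest apart, varied between vehicle pools. Olfr1501 signals in vehicle pools 1 to 5 were 4.94, 6.33, 4.95, 7.63 and 8.61 in GFP- cells and 7.97, 7.34, 9.81, 9.16 and 11.87 in GFP+ cells. In odor pools, Olfr1501 gave 5.31, 4.38, 5.14, 6.88 and 7.57 in GFP- cells and 9.66, 8.89, 9.29, 9.57 and 11.87 in GFP+ cells. The replicate 5 arrays were the highest of each group, and the GFP+ and GFP- signals overlapped in vehicle but not in odor pools. The differences of 2.74 (SE 0.45, adjusted p = 0.00102, limma) and 4.00 (SE 0.45, adjusted p = 5.37e-05) gave an odor effect of 1.26 (95% interval -0.12 to 2.64). That of Olfr1467 was -0.60 (95% interval -1.42 to 0.21).

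Within GFP+ cells the smallest p-values were those of Olfr1471, Olfr1494 and Olfr1451. The Olfr1471 signal was 10.76, 10.06, 11.06, 10.28 and 10.59 in vehicle and 9.62, 9.57, 10.69, 10.10 and 9.98 in odor GFP+ cells. The odor values lay lower on the whole but overlapped the vehicle values, with a difference of -0.56 (95% interval -1.19 to 0.08). The Olfr1451 signal was 6.36, 5.82, 6.86, 5.33 and 5.88 in vehicle and 5.65, 5.47, 6.34, 5.24 and 5.32 in odor GFP+ cells, with a difference of -0.45 (95% interval -1.17 to 0.27), and that of Olfr1494 was -0.47 (-1.19 to 0.25).

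Within GFP- cells they were those of Olfr1462, Olfr1469 and Olfr1454. The Olfr1462 signal, at or below background on every array, was 4.18, 3.59, 3.49, 3.07 and 4.27 in vehicle and 4.79, 4.62, 3.17, 4.61 and 4.30 in odor GFP- cells, a difference of 0.58 (95% interval -0.25 to 1.40). For Olfr1469, whose signals are given above, it was 0.84 (-0.41 to 2.09). The Olfr1454 signal was 6.85, 7.13, 5.71, 6.65 and 7.91 in vehicle and 6.10, 5.39, 5.76, 5.90 and 7.69 in odor GFP- cells, with a difference of -0.68 (95% interval -1.76 to 0.39). The groups overlapped for all 3 receptors.

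**Figure D4:**
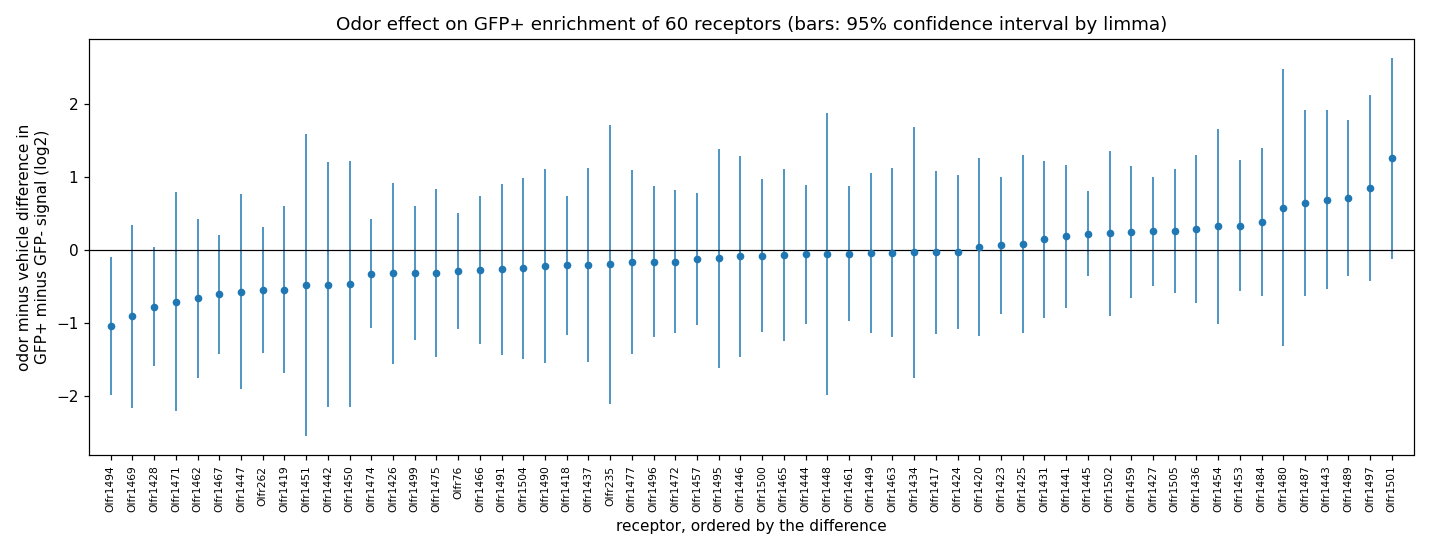
Odor minus vehicle difference in GFP+ minus GFP- log2 signal (y axis) of the 60 receptors, ordered by it (x axis), with 95% confidence intervals by limma as bars. The interval of Olfr1494 (-1.98 to -0.09) is the one that leaves out 0, and the intervals reach from -2.54 to 2.64 over all 60.

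Over the 20 arrays, the probe sets whose signal was most like that of Olfr1467 were Olfr692 (Pearson r = 0.971), Olfr860 (0.966) and an unnamed one (0.964), and among chromosome 19 receptors Olfr1463 (0.872), Olfr1445 (0.871) and Olfr1500 (0.861). Those most like Olfr1447 were Cxcr4, a chemokine receptor (0.986), Olfr393 (0.983) and Arpc1b, an actin-nucleating complex subunit (0.981), and among chromosome 19 receptors Olfr1446 (0.977), Olfr1495 (0.970) and Olfr1494 (0.964). These arrays share the sort and the replicate 5 shift, so the values describe the pattern over groups.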

How the data were processed

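Arrays were Affymetrix Clariom S mouse arrays, hybridised with biotinylated cRNA made from 50 to 100 ng of total RNA, per the labels' protocols. Each probe set has a log2 signal, made by the authors with Affymetrix Expression Console, per the submitters' processing notes. The version, settings and genome build were not given in the sources used here, and the deposited signals were used as they are, without further normalization. Of 28846 rows, 6640 control rows were left out, which left 22206 gene probe sets, 19572 with 1 symbol, 0 with several and 2634 with none. All 60 receptors matched the RefSeq gene table of GRCm38.p6 by Entrez ID, with 0 symbols changed, and their older MOR names come from its synonyms. No array pair shared more than 0.00901% of its values.

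Differences between GFP+ and GFP- cells were taken within each pool and fitted with limma 3.58.1 (lmFit and eBayes, R 4.3.3) over 10 pools, with 1 coefficient per condition and their contrast as the odor effect. That the fractions of a condition and number share a pool follows from 30 mice in groups of 3 and 20 arrays. Odor was also compared with vehicle within each fraction (10 arrays, no replicate block). All p-values are two-sided, were adjusted by Benjamini-Hochberg over all 22206 probe sets with a threshold of 0.05, and measure the spread between pools. In GFP+ cells, the deviations of odor and vehicle pools of the same number had r from 0.16 to 0.86, the highest for replicate 5. In GFP- cells r was -0.38 for number 2 and 0.14 to 0.84 for the others. For the pool differences r was -0.31, -0.48, 0.16, -0.14 and 0.21 for numbers 1 to 5. No r for pools of different numbers is given here, so whether the numbers pair odor with vehicle pools was not tested.

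Background was each array's median over the background control probe sets. A bound sets the brighter fraction's mean against, per array, the higher of that median and the dimmer signal. Signals of different probe sets were not compared with each other, and the number of arrays limits the precision. The scripts were tested on simulated data. Coding starts were compared base by base without gaps and upstream windows by global alignment (Biopython 1.88). A planned comparison of proteins was not run, since protein sequences were not used here. Receptors are named by their 8 highest and 8 lowest vehicle differences among those called alike in both conditions, the smallest p for odor (4 for the effect, 3 per fraction), the 4 smallest vehicle differences, the 3 widest neighbour contrasts, the called receptor that differed most between conditions, and family extremes. Others are named with counts, families or sequences, after their values were seen. For these, calls lost under other settings are not given by name. The receptors, lists and rules were chosen with earlier results of these data known.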

Additional observations from a re-analysis of the deposited data

Results flagged for a closer look

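GFP+ minus GFP- differences within a pool were examined in 120 groups of 5 (60 receptors in both conditions), of which chance flags about 1 in 20, and 3 groups had a pool far from the others. In odor pools, Olfr1501 was 2.69 in replicate 4, where the other 4 pools lay between 4.16 and 4.50. Without that pool the odor mean of Olfr1501 was 4.33 in place of 4.00, and the call remained. Olfr1500 was 3.12 in odor replicate 1, with the others between 1.45 and 1.74. Olfr1466 was 3.12 in vehicle replicate 3, with the others between 0.68 and 1.29.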

How the results depend on the processing

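Calls were recomputed under quantile normalization, centring, a filter on the dimmest 25% of probe sets (55 of 60 receptors passed), an intensity trend, array weights, a replicate block, each pool left out and both pools numbered 5 left out. A term for the replicate 5 arrays, and leaving out the 3 pools whose arrays were, apart from replicate 5, least like their group (vehicle 1 and 2, odor 2), were chosen after seeing the data. Without a replicate block on the fractions of a pool, 8 receptors in place of 18 were higher in vehicle and 10 in place of 19 in odor pools, and 12 in place of 17 and 12 in place of 18 were lower; the pairing removes the spread between pools. The odor median moved from 0.023 to 0.23 with centring and to 0.20 with the filter on dim probe sets, which leaves fewer genes; centring moves all probe sets, whose median went from 0.08 to 0.29. With single pools left out, 15 to 21 receptors were higher and 15 to 19 lower in vehicle pools (median 0.14 to 0.28), and 14 to 21 and 14 to 18 in odor pools (median 0.023 to 0.098). Without both pools numbered 5, 15 of the 18 higher and 14 of the 17 lower vehicle calls were kept, and 13 of 19 and 16 of 18 odor calls. Without vehicle 1, vehicle 2 and odor 2, 22 and 18 were called in vehicle and 19 and 18 in odor pools.

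Directions reversed for uncalled receptors alone. Vehicle Olfr1472 was 0.11 under quantile normalization, 0.17 under centring and -0.35 to 0.25 with pools left out. Vehicle Olfr1453 was 0.024 under centring. With pools left out, vehicle Olfr1427 ran from -0.0038 to 0.41, vehicle Olfr262 from -0.10 to 0.47 and odor Olfr1457 from -0.19 to 0.41, and odor Olfr1457 was -0.19 without both pools numbered 5. The cause was not tested. The odor comparisons gave 0 called receptors under every setting tried. At an unadjusted p under 0.05 by limma there were 0 to 3 for the odor effect, 0 to 5 in GFP+ and 0 to 7 in GFP- cells. The 3 came without vehicle replicate 5, beside 1.32% of all probe sets. The 5 came with array weights and with the replicate block, beside 3.17% and 3.69%. The 7 came with array weights, beside 7.49%. The replicate block (2, 5 and 3) changed no call. In windows of 150 bases, TAATTA was in 7.02%, TAATTG in 22.8% and TATAAA in 12.3% of receptor windows, beside 2.73%, 4.05% and 7.57% of all windows, and TAATTG in 4 of 17 lower, 1 of 17 higher and 8 of 23 uncalled receptors. For 8 odor and 5 vehicle calls the dimmer fraction was at or below background on all 5 arrays, so these have only bounds. Other called differences had some of their arrays there, as given above, which can limit their size too.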
